A study of Mus musculus with 4 samples.

Results

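Granins are the soluble cargo proteins of dense core vesicles, the storage granules from which neurons and endocrine cells release peptides on stimulation. They aggregate in the secretory pathway, help vesicles to form and are themselves cut into peptides. Prohormone convertases cut precursors at paired basic residues, carboxypeptidase E trims the basic residues left behind, and peptidylglycine alpha-amidating monooxygenase amidates the new ends. Many genes of this pathway are known targets of REST, the repressor that binds the RE1 element and holds neuronal genes silent outside neurons.

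The 10 genes described here were taken by their symbols from the count table. They are 6 granins and granin-like proteins (Chga, Chgb, Scg2, Scg3, Scg5 and Vgf) and 4 processing enzymes (Pcsk1, Pcsk2, Cpe and Pam), out of 26301 gene identifiers. Total RNA of mouse embryonic stem cells (ESCs) was made into 4 sequencing libraries with the Illumina TruSeq RNA kit. There were 2 biological replicates for the WT line N6 and 2 for the REST-/- line N8. The libraries of both genotypes came from cells grown with LIF and serum on irradiated fibroblast feeders and then passaged on gelatin to remove the feeders. Each genotype is 1 line, so genotype and line cannot be told apart, and the labels do not say what separated the replicates of a line. The p-values therefore measure the spread between these libraries. Deviations of replicate 1 from the genotype mean correlated between genotypes (r = 0.81 over 15444 genes, which are not independent). The edgeR fit used below has no term for replicate number, so this shared part stays in that spread. A fit with such a term, the replicate block, is given in the last section.

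The libraries held between 22293966 and 30953863 counts on genes. Levels are given as CPM, a gene's count over the total of its library, scaled by the same constant in every library. The log2 fold changes are REST-/- over WT from edgeR's quasi-likelihood fit of 15444 genes that passed its filter on low counts, and p-values are adjusted over all of these genes. Rest itself had WT counts of 7908 and 6233 and REST-/- counts of 4244 and 3890, and both REST-/- libraries lay below both WT libraries. Its log2 fold change was -0.52 (SE 0.129, adjusted p = 0.526). Which Rest exons are disrupted in N8 is not given in the sources used here, so this whole-gene count is a limited check of the labels. Transcripts of the pluripotency gene Pou5f1 were abundant in both genotypes, with means of 683.8 CPM in WT and 728.7 CPM in REST-/- ESCs. Zfp42, also used as a marker of naive ESCs, was at 620.1 CPM in WT and 243.4 CPM in REST-/- ESCs (log2 fold change -1.36, SE 0.184, adjusted p = 0.179). Of 14 pluripotency markers none passed the quasi-likelihood test, and 4 had an unadjusted p under 0.05, as did 6.71% of all tested genes. In edgeR's exact test with tag-wise dispersion 2 (Zfp42 and Klf2) were called lower, against 0.46% of all tested genes, with common dispersion 1, against 0.628%, and by DESeq2 2, against 0.376%.

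Transcripts of all 6 granins were many times more abundant in REST-/- than in WT ESCs. The 4 processing enzymes also had higher means, by smaller factors. The fitted granin log2 fold changes ran from 3.20 to 6.69 with a median of 5.03, where the upper end is Scg2, with WT counts of 1 and 0, whose value was 4.66 with a prior count of 2. The enzyme log2 fold changes ran from 0.66 to 2.91 with a median of 1.06. For each of the 10 genes, both REST-/- libraries lay above both WT libraries, which was true of 17.4% of all tested genes. Scg3 and Vgf passed the threshold of 0.05 on the adjusted p. In the same test 0.0518% of all tested genes, 8 genes, were called higher. Over the 10 genes the median log2 fold change was 3.74, against -0.0047 over all tested genes. Chgb, Scg2 and Scg5 passed the filter through the REST-/- libraries alone, so the counts and the median over the 10 genes include genes that had to differ to be tested. The same holds for the median of the granins. Among the 7 genes that the WT libraries alone would have kept, the median was 2.91, and among the 3 granins of these (Chga, Scg3 and Vgf) it was 4.28. All 4 enzymes passed on the WT libraries.

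**Figure D1:**
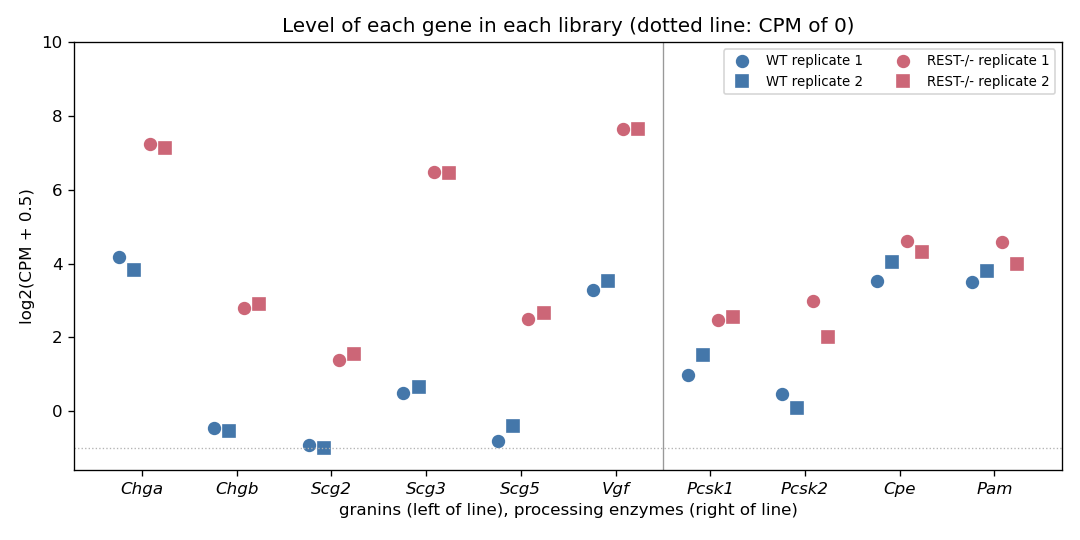
Level of each gene in each library, as log2(CPM + 0.5), for 6 granins and 4 processing enzymes. Blue points are WT and red points REST-/- libraries, with circles for replicate 1 and squares for replicate 2. The granins stand far apart between genotypes, with Scg3 at 0.905 and 1.07 CPM in WT and at 89.6 and 88.1 CPM in REST-/- libraries, whereas Cpe and Pam lie close together.

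The RE1 element is shown first because it is the sequence by which REST finds its targets. The motif CAGNACCNNGGACAG was searched on both strands of the mouse genome NCBIM37 (mm9), the build the labels name. It has 15 positions, of which 12 are informative and N stands for any base. This is a form of the motif with fixed letters. The paper reports REST-bound regions with a complete or a partial motif, so an RE1 may be present without a full match here. Of the 10 genes, 3 (Chga, Chgb and Pcsk2) had a match at all 12 positions within 20 kb of an annotated start site, against 4.44% of the 14159 tested genes with a position. Within 1 kb, 2 of the 10 (Chga and Chgb) had such a match, against 0.727% of tested genes. When 11 positions were enough, Scg3 and Vgf were added and 5 of 10 genes had a match within 20 kb, as did 44.3% of tested genes. Within 1 kb, 3 of 10 genes (Chga, Chgb and Vgf) matched at 11 or more positions, against 6.18% of tested genes. The matches below are printed 5′ to 3′ on the strand of the motif with 7 bases on either side, and capitals mark the informative positions that match.
Chga intron, chr12:103793443-103793471, plus strand: gaggattCAGcACCtcGGACAGcaccagg
Chga upstream, chr12:103788899-103788927, plus strand: agtgtttCAGgACCacGGACAGcgacacg
Chgb intron, chr2:132607525-132607553, plus strand: gggatttCAGcACCccGGACAGctcctag
Pcsk2 upstream, chr2:143362408-143362436, plus strand: ggatcgtCAGcACCacGGACAGagctcac
Vgf at the start site, chr5:137506141-137506169, minus strand: ccggcttCAGcACgctGGACAGcgcccgc

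In Chga the match inside the gene lay 278 bp downstream of the start site, and a second full match lay 4266 bp upstream. The Chgb match lay 525 bp downstream of its start site, in an intron. The Pcsk2 match lay outside the gene, 9470 bp upstream of the nearest start site. All 4 full matches were on the strand of their gene. The match of Vgf lay 10 bp upstream of the start site on the opposite strand, and it departed from the motif at 1 informative position, C7G (the motif's base first, positions counted from 1 at the 5′ end of the motif). A further pair of 11-position matches lay 902 and 944 bp downstream, in an exon of Vgf. The match of Scg3 was in an intron, 17020 bp from the start site, with the substitution C6A. No match at 11 or more positions was found within 20 kb of the start sites of Scg2, Scg5, Pcsk1, Cpe or Pam. A match describes letters and not binding, and its absence from this window says only that these letters were not found there.

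**Figure D2:**
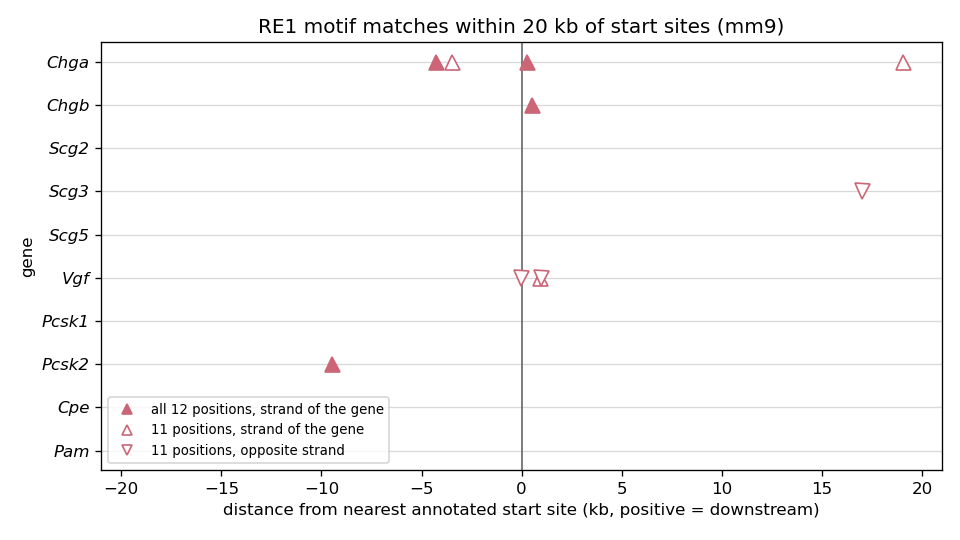
Position of RE1 motif matches relative to the nearest annotated start site of each gene, in kb, with downstream positive. Filled symbols match all 12 informative positions and open symbols match 11. Symbols pointing up are on the strand of the gene. Only the rows of Chga, Chgb and Pcsk2 hold filled symbols, and 5 rows are empty.

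The log2 fold changes of genes with and without a full match are set side by side here as a description. The 3 genes with a full match had log2 fold changes of 3.20 (Chga), 4.98 (Chgb) and 2.91 (Pcsk2). Scg2, Scg3 and Scg5, which had none within 20 kb, had log2 fold changes of 6.69, 6.47 and 5.07, and the values of Chgb, Scg2 and Scg5 rest on WT counts too low to pass the filter. With a prior count of 2 they were 4.58 for Chgb, 4.66 for Scg2 and 4.57 for Scg5. Vgf, also without a full match, had 4.28, and Pcsk1, Pam and Cpe had 1.43, 0.69 and 0.66. The nearest full match on the chromosome was 695 kb from the start site of Scg3 and 45.3 kb from that of Vgf.

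Scg3 encodes secretogranin III, which binds chromogranin A and anchors granin aggregates to the vesicle membrane (chromosome 9, 75491071 to 75531803, minus strand, mm9 throughout). It was counted 28 and 29 times in WT libraries, against 2282 and 1965 times in REST-/- ESCs. These are 0.988 ± 0.118 CPM in WT and 88.9 ± 1.05 CPM in REST-/- ESCs (SD, n = 2 each). The genotypes were far apart and the replicates close together. The log2 fold change was 6.47 (SE 0.207, adjusted p = 0.0274), and this gene had the smallest p-value of all tested genes.

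Vgf encodes a granin-like precursor, induced by nerve growth factor, whose peptides act in energy balance and synaptic function (chromosome 5, 137506165 to 137509221, plus strand). It had WT counts of 287 and 301 and REST-/- counts of 5100 and 4452, 9.27 and 11.1 CPM against 200.3 and 199.7 CPM. It had the highest CPM of the 10 genes in each REST-/- library, and its REST-/- replicates differed by less than 1 CPM. The log2 fold change was 4.28 (SE 0.177, adjusted p = 0.0374). By p-value it came directly after Scg3 among all tested genes.

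Chga encodes chromogranin A, an abundant granin of neuroendocrine cells and a common tissue marker for them (chromosome 12, 103793179 to 103803237, plus strand). It had WT counts of 549 and 367 and REST-/- counts of 3872 and 3103. The means were 15.7 ± 2.95 CPM in WT and 146 ± 9.11 CPM in REST-/- ESCs (SD, n = 2 each), a ratio of 9.31. It was the granin with the highest WT level and the smallest log2 fold change, 3.20 (SE 0.196). Its adjusted p of 0.0507 lay just above the threshold in edgeR's quasi-likelihood test, and was 0.0478 with RLE scaling and 0.0428 with upper-quartile scaling.

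Chgb, which encodes chromogranin B, the sister protein of chromogranin A in the granule core, was close to the limit of detection in WT ESCs. This gene, on the plus strand of chromosome 2 (132607014 to 132620815), had WT counts of 7 and 5 and REST-/- counts of 164 and 156, 0.226 and 0.185 CPM against 6.44 and 6.997 CPM. The ratio of summed counts, scaled by library totals, was 32.4 (95% exact binomial interval 18.3 to 63.4, which covers counting error only). Its log2 fold change was 4.98 (SE 0.37, adjusted p = 0.0807).

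Scg2 encodes secretogranin II, the precursor of the peptide secretoneurin (chromosome 1, 79431244 to 79436665, minus strand). Its WT counts were 1 and 0, under the floor of 3 counts taken for detection, and its REST-/- counts were 54 and 54. It was thus detected in REST-/- ESCs at 2.12 and 2.42 CPM and not above the floor in WT ESCs. The ratio of summed counts was 131, with a wide 95% exact counting interval of 23.1 to 5230. Its fitted log2 fold change of 6.69 (SE 0.76, adjusted p = 0.119) depends on the prior count. The lower end of the interval is 4.53 on the log2 scale. That end lies above the log2 fold change of Vgf (4.28), so the median over the 10 genes could not change with it. Without WT replicate 1 the fitted value was 8.82, and without WT replicate 2 it was 5.94.

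Scg5 encodes 7B2, the chaperone that prohormone convertase 2 needs for maturation (chromosome 2, 113616519 to 113669278, minus strand). It had WT counts of 2 and 7 and REST-/- counts of 132 and 130, 0.0646 and 0.259 CPM against 5.18 and 5.83 CPM. The WT libraries differed from each other by a larger factor than for any other member with a count in both, and the REST-/- libraries were alike. The ratio of summed counts was 35.4 (95% exact counting interval 18.3 to 78.2). Its log2 fold change was 5.07 (SE 0.642, adjusted p = 0.15), with values of 4.36 and 6.31 when WT replicate 1 or WT replicate 2, respectively, was left out.

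Pcsk2 encodes prohormone convertase 2, the partner of 7B2 (chromosome 2, 143371892 to 143642021, plus strand). Opposite-strand genes, 2 in number, share 260 and 99 of its 7910 exon bases, and the library kit does not mark strand, so their reads cannot be told apart there. It had WT counts of 27 and 15 and REST-/- counts of 189 and 78, 0.872 and 0.554 CPM against 7.42 and 3.50 CPM. Of the 10 genes it had the largest difference between the REST-/- replicates, as a ratio. The log2 fold change was 2.91 (SE 0.537, adjusted p = 0.332), and was 2.29 without REST-/- replicate 1.

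Pcsk1 encodes prohormone convertase 1/3, which makes the first cuts in many hormone precursors (chromosome 13, 75227274 to 75269946, plus strand). It had WT counts of 45 and 64 and REST-/- counts of 128 and 119, 1.45 and 2.37 CPM against 5.03 and 5.34 CPM. The groups did not overlap, and the WT libraries differed from each other by a larger factor than the REST-/- libraries. The log2 fold change was 1.43 (SE 0.373, adjusted p = 0.565). Pcsk1n, which encodes proSAAS, an inhibitor of this convertase, had WT counts of 469 and 493 and REST-/- counts of 247 and 347 (log2 fold change -0.41, adjusted p = 1). In CPM its libraries overlapped, at 15.15 and 18.2 in WT and 9.70 and 15.6 in REST-/-. This gene was singled out after its values were seen.

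Cpe, the gene of the trimming carboxypeptidase, which lies on the minus strand of chromosome 8 (67071355 to 67171837), had WT counts of 340 and 432 and REST-/- counts of 606 and 431. This was 10.98 and 15.96 CPM against 23.8 and 19.3 CPM. The log2 fold change was 0.66 (SE 0.279, adjusted p = 0.817). Pam, the gene of the amidating enzyme, on the minus strand of chromosome 1 (99691691 to 99992223), had WT counts of 333 and 360 and REST-/- counts of 603 and 346, 10.8 and 13.3 CPM against 23.7 and 15.5 CPM. Its log2 fold change was 0.69 (SE 0.295, adjusted p = 0.821). In these genes the highest WT library and the lowest REST-/- library were close, and neither difference passed the test against the spread between replicates.

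Among all 15444 tested genes ordered by log2 fold change, Scg2 stood at place 11, Scg3 at 12, Scg5 at 17, Chgb at 19, Vgf at 33 and Chga at 68. The place of Scg2 rests on WT counts of 1 and 0, and with a prior count of 2 its log2 fold change was 4.66 against 6.38 for Scg3. Pcsk2 followed at 83 and Pcsk1 at 282, whereas Pam stood at 1036 and Cpe at 1091. In this fit every granin stood above every processing enzyme, but the gap between Chga and Pcsk2 was smaller than the SE of Pcsk2, and without REST-/- replicate 2 Pcsk2 (3.33) lay above Chga (3.25). Across the 10 genes, Pearson's r between the WT level, log2(mean CPM + 0.5), and the log2 fold change was -0.68. This is a description over genes that share the same 4 libraries. The WT level enters both quantities, and Chgb, Scg2 and Scg5, with low WT levels, passed the filter through the REST-/- libraries alone. A negative r is thus partly built in.

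**Figure D3:**
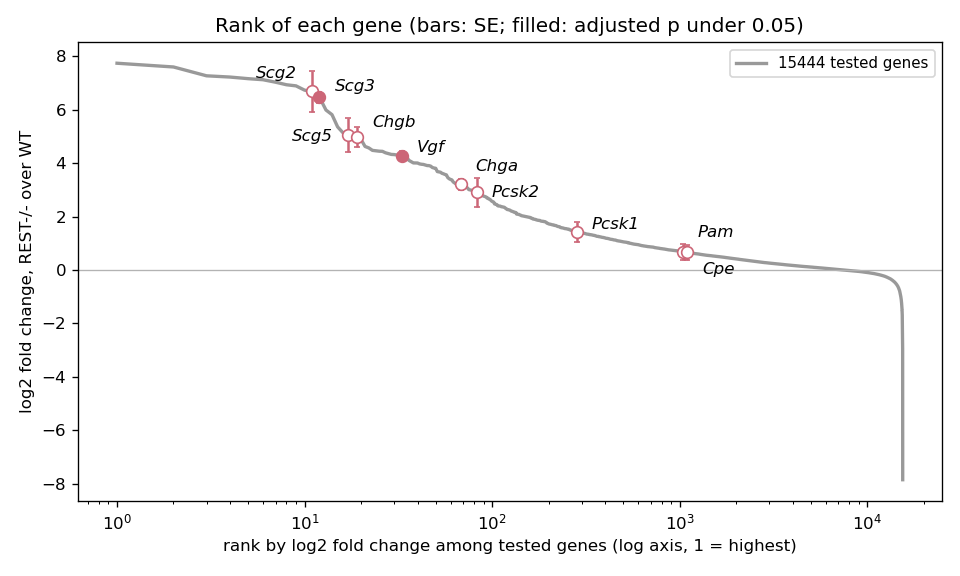
Fitted log2 fold change against rank among the 15444 tested genes (grey line), with the rank on a log axis. Points are the 10 genes with bars of 1 SE, filled where the adjusted p was under 0.05. Scg2 and Scg3 stand at places 11 and 12, and Pam and Cpe stand beyond place 1000.

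Compared per length, as CPM per kilobase of annotated exon (RPKM), the genes changed places. In WT ESCs the highest levels were those of Chga (9.42 and 7.21 RPKM) and Cpe (5.26 and 7.65 RPKM), whose libraries overlapped, followed by Vgf (3.63 and 4.36 RPKM) and Pam (1.35 and 1.66 RPKM). Pcsk1 and Scg3 overlapped at 0.402 to 0.73 RPKM, Scg5, Pcsk2 and Chgb overlapped between 0.0412 and 0.165 RPKM, and Scg2 was lowest. In REST-/- ESCs the highest levels were those of Vgf (78.5 and 78.2 RPKM) and Chga (80.8 and 74.0 RPKM), which overlapped, followed by Scg3 (39.9 and 39.2 RPKM). Cpe came next (11.4 and 9.26 RPKM), so 3 granins were above the enzyme that had been level with Chga in WT ESCs. Scg5 stood at 3.30 and 3.72 RPKM, Chgb and Pam overlapped at 1.94 to 2.96 RPKM, and Pcsk1 followed at 1.55 and 1.65 RPKM. Scg2 and Pcsk2 overlapped at the bottom of the order. The summed level of the 6 granins was 13.6 and 12.3 RPKM in WT and 206 and 199 RPKM in REST-/- libraries, while that of the 4 enzymes was 7.17 and 10.1 RPKM in WT and 16.9 and 13.3 RPKM in REST-/- libraries. Chga, Scg3 and Vgf gave between 96.6% and 98.9% of the summed granin CPM in every library.

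**Figure D4:**
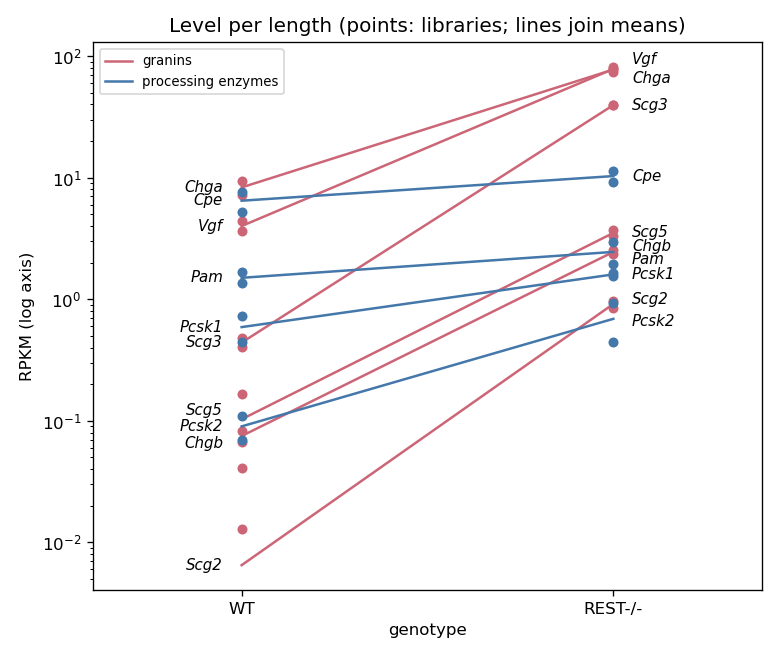
Level per length (RPKM, log axis) of each gene in WT and REST-/- ESCs, with points for libraries and lines joining the means. Granins are red and processing enzymes blue, and the WT library of Scg2 with 0 counts has no point. Scg3 climbs from 0.44 to 39.5 RPKM on average and passes Cpe and Pam, whose lines are nearly flat.

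The threshold on the adjusted p was crossed by more of the 10 genes in other count tests. With edgeR's exact test under the dispersions that the study's methods name, 7 of the 10 genes were called higher for tag-wise and 7 for common dispersion, namely the 6 granins and Pcsk2. Of all tested genes, 1.31% were called higher under tag-wise and 1.59% under common dispersion. The adjusted p in the exact test with tag-wise dispersion was 6.47e-70 for Scg3, 0.000545 for Pcsk2 and 0.121 for Pcsk1. Neither version called Pcsk1, Cpe or Pam. DESeq2 also called 7 of the 10 genes higher, against 1.17% of all tested genes. In each of these tests 3 of the 7 calls (Chgb, Scg2 and Scg5) were of genes tested only because of their REST-/- counts, and 4 of the 7 genes kept on the WT libraries alone were called. Leaving any 1 library out of the quasi-likelihood fit meant that the lone library left in a genotype was assumed to vary like the others. Calls are therefore not read from those fits. For the 3 granins kept on the WT libraries alone, the log2 fold changes then ran from 6.34 to 6.61 (Scg3), 4.14 to 4.43 (Vgf) and 3.03 to 3.40 (Chga).

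Other enzymes that process precursors were read from a list of 22 genes, of which 19 were tested. None passed the threshold in edgeR's quasi-likelihood test, its exact test or DESeq2, and 1 had an unadjusted quasi-likelihood p under 0.05, as did 6.71% of all tested genes. Of the tested genes 11 had positive and 8 negative log2 fold changes, and the median was 0.13. Furin, which cuts precursors in the constitutive secretory pathway, had a log2 fold change of 0.054 (chosen after its values were seen). Qpctl, a Golgi glutaminyl cyclase, had the largest log2 fold change of the list, 0.88 (SE 0.326, adjusted p = 0.739), and Cpn1, a plasma carboxypeptidase, the lowest, -0.64 (SE 0.289, adjusted p = 0.857). The highest levels by CPM were those of Mbtps1, a Golgi protease that activates membrane-bound transcription factors, at 435 CPM in WT and 361 CPM in REST-/- ESCs, and of the lysosomal protease Ctsl, at 217 and 312 CPM.

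Genes of dense core vesicle formation and release were read from a list of 38, of which 36 were tested. None passed edgeR's quasi-likelihood test, in which 4 had an unadjusted p under 0.05 (6.71% of all tested genes did), and 22 had positive and 14 negative log2 fold changes, and the median was 0.08. In the exact test with tag-wise dispersion 3 of the 36 were called higher and 0 lower, namely Rab3c, Ptprn2 and Ptprn, against 1.31% of all tested genes called higher, and DESeq2 also called 3, against 1.17%. Rab3c was tested only because of its REST-/- counts. Rab3c, a small GTPase of secretory vesicles, had WT counts of 1 and 3 and REST-/- counts of 100 and 101, a ratio of 61 (95% exact counting interval 23.5 to 226). Ptprn2 and Ptprn encode phogrin and IA-2, receptor-like proteins of the vesicle membrane. Ptprn2 had WT counts of 27 and 27 and REST-/- counts of 165 and 143 (log2 fold change 2.77, SE 0.31, adjusted p = 0.115). Ptprn had WT counts of 768 and 482 and REST-/- counts of 3540 and 1967 (log2 fold change 2.40, SE 0.304, adjusted p = 0.15). Cadps, which primes vesicles for release, had a log2 fold change of 0.84 (SE 0.528, adjusted p = 1).

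The substrates of this pathway are among the precursors of neuropeptides and peptide hormones, and the list read here was not limited to known substrates. Of 69 neuropeptide and peptide hormone precursor genes in the table, 27 were tested, beside 58.7% of all identifiers in the table, and 11 had 0 counts in all 4 libraries, among them Gcg, Ins1, Ins2 and Avp. None passed edgeR's quasi-likelihood test, in which 4 had an unadjusted p under 0.05 (6.71% of all tested genes did), and 18 had positive and 9 negative log2 fold changes, and the median was 0.40. Gast, among the positive genes, passed the filter through the REST-/- libraries alone. Nppb, the precursor of a natriuretic peptide, was the 1 gene called higher in the exact test with tag-wise dispersion (1.31% of all tested genes), with WT counts of 19 and 17 and REST-/- counts of 85 and 56 (log2 fold change 2.21, SE 0.369, quasi-likelihood adjusted p = 0.268). Edn1, the precursor of endothelin, had WT counts of 38 and 67 and REST-/- counts of 117 and 109 (log2 fold change 1.34, SE 0.445, adjusted p = 0.69). Trh, the precursor of thyrotropin-releasing hormone, had the highest level of the list, with 204.6 and 241.6 CPM in WT and 205.5 and 280.4 CPM in REST-/- libraries, which overlapped. Calca, the calcitonin precursor, also overlapped, at 15.1 CPM in WT and 14.9 CPM in REST-/- ESCs.

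**Figure D5:**
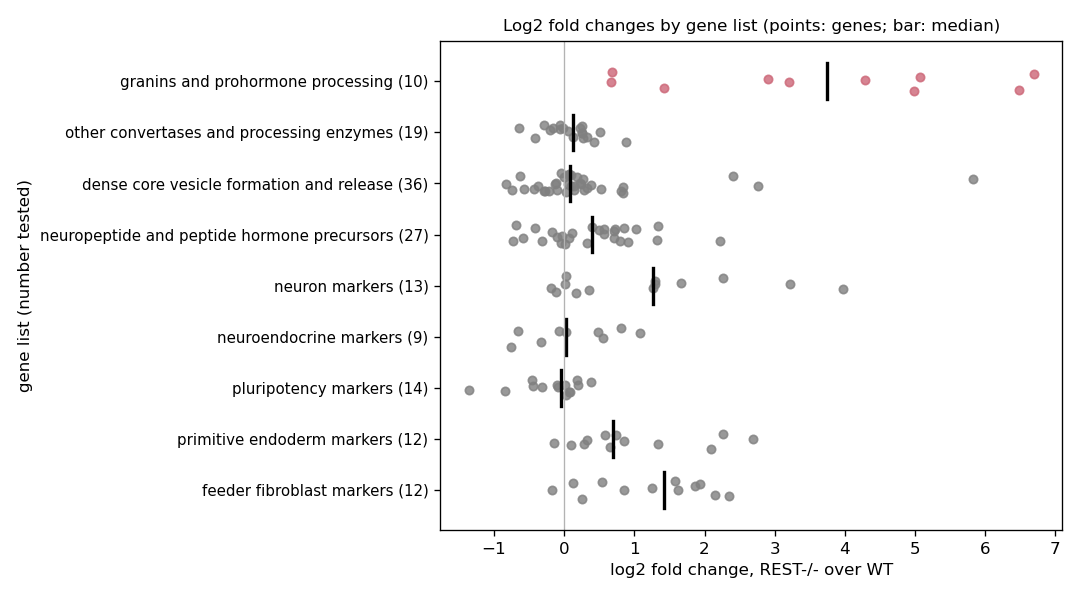
Log2 fold changes of the tested genes of each list, with a black bar at the median and the number tested in brackets. Values of the 10 granin and processing genes (red) run from 0.66 to 6.69, with a median of 3.74. The other medians run from -0.04 for pluripotency markers to 1.26 for neuron markers and 1.42 for feeder fibroblast markers.

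Markers of other cell types were read for the same libraries, and their part in the granin values was not tested. Of 14 neuron markers, 13 were tested and none passed edgeR's quasi-likelihood test, in which 6 had an unadjusted p under 0.05. The exact test with tag-wise dispersion and DESeq2 each called 6 higher. Snap25 and Syp were among those of the exact test, and common dispersion called 4. Of all tested genes 6.71% had an unadjusted p under 0.05, and 1.31%, 1.17% and 1.59% were called higher by tag-wise dispersion, DESeq2 and common dispersion. The median log2 fold change was 1.26, and 11 of 13 were positive. The summed level of the list was 462 and 555 CPM in WT and 743 and 781 CPM in REST-/- libraries. The neuron markers with the highest CPM, Tubb3 and Stmn2, overlapped between genotypes. Of 14 neuroendocrine markers, 9 were tested, none was called by these 3 tests, 1 had an unadjusted quasi-likelihood p under 0.05, and the summed level was 48.9 and 34.1 CPM in WT and 67.2 and 45.5 CPM in REST-/- libraries, with Dbh at 0 counts in every library. Primitive endoderm markers, 12 tested, had summed levels of 506 and 609 CPM in WT and 848 and 798 CPM in REST-/- libraries, and none passed the quasi-likelihood test, 4 had an unadjusted p under 0.05, 3 were called higher in the exact test with tag-wise dispersion and 2 by DESeq2, against the same 6.71%, 1.31% and 1.17% of all tested genes. Their median log2 fold change was 0.69. In bulk RNA, fewer cells with a transcript and less transcript per cell cannot be told apart.

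Some fibroblast transcripts were higher in 1 REST-/- library. The summed level of the 14 feeder fibroblast markers was 73.1 and 103 CPM in WT, 195 CPM in REST-/- replicate 1 and 100 CPM in REST-/- replicate 2, with Lum at 0 counts throughout. None of the 12 tested was called by the quasi-likelihood test, the exact test with tag-wise dispersion or DESeq2. In the quasi-likelihood test 2 had an unadjusted p under 0.05, as did 6.71% of all tested genes. The exact test with common dispersion called 5 of the 12 higher, against 1.59% of all tested genes, among them Postn, Col3a1, Col1a2 and Prrx1. The median log2 fold change of the list was 1.42. Twist2 (log2 fold change 1.87) passed the filter through the REST-/- libraries alone, and Postn and Prrx1 would not have passed on the WT libraries alone. Col1a2, a fibroblast collagen, was at 28.95 CPM in REST-/- replicate 1 and between 3.81 and 6.27 CPM in the other libraries. The 2 markers of the list with the highest mean CPM did not follow this pattern. Mmp2 was highest in WT replicate 2, at 31.6 CPM against 26.6 CPM in REST-/- replicate 1, and Col5a1 was highest in REST-/- replicate 2, at 33.1 CPM against 31.1 CPM in REST-/- replicate 1. Pcsk2, Cpe and Pam were also higher in REST-/- replicate 1 than in REST-/- replicate 2. So were Chga (152.1 against 139.2 CPM), Scg3 (89.6 against 88.1 CPM) and Vgf (200.3 against 199.7 CPM), by smaller factors. In WT, Pcsk2 was likewise higher in replicate 1 (0.872 CPM) than in replicate 2 (0.554 CPM), whereas Cpe and Pam were lower. Without REST-/- replicate 1 the log2 fold changes were 2.29 for Pcsk2, 0.53 for Cpe and 0.37 for Pam. The part of fibroblasts in these 3 genes was not tested. For the 6 granins, the log2 fold changes without REST-/- replicate 1 were 3.16 for Chga, 5.06 for Chgb, 6.81 for Scg2, 6.48 for Scg3, 5.17 for Scg5 and 4.30 for Vgf, all close to the values from the 4 libraries.

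The tested genes with a pattern most like that of Scg3 and Vgf were found by the Euclidean distance of log2(CPM + 0.5), centred on each gene, over the 4 libraries. Nearest to Scg3 were a locus without a symbol (Entrez 100504526, distance 0.36), Rps15a-ps8 (0.74) and Chrnb2 (1.16). Chrnb2, a nicotinic acetylcholine receptor subunit, was at 2.12 CPM in WT and 70.1 CPM in REST-/- ESCs. Rps15a-ps8 is a ribosomal protein pseudogene, and its reads may be shared with near-identical copies. Nearest to Vgf were EG625514 (0.17), Unc13a (0.50) and 2900083I11Rik (0.54). The added 0.5 CPM compresses genes near 0 in WT, so a small distance does not mean an equal ratio. EG625514 had WT counts of 2 and 2 and REST-/- counts of 275 and 236, a ratio of 155 (95% exact counting interval 60.2 to 572) against 19.7 for Vgf. It passed the filter through the REST-/- libraries alone, as did the locus without a symbol and Rps15a-ps8. Unc13a, which primes vesicles for fusion at the synapse, was at 15.7 CPM in WT and 245 CPM in REST-/- ESCs.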

How the data were processed

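The 2 WT (N6) and 2 REST-/- (N8) ESC libraries were made from total RNA with the Illumina TruSeq RNA kit and sequenced. The authors deposited whole-number counts per Entrez gene without normalization, and the labels name Subread, featureCounts and mm9. Tool versions and the counting setting for strand are not given in the sources used here. Of the table's rows, 26301 had an identifier, and 368 empty rows were left out. Library totals were 22293966 to 30953863 counts, and intervals and floors cover counting error only.

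CPM used column totals. The genotypes were compared in R 4.3.3 with edgeR 4.0.16 (TMM, filterByExpr, quasi-likelihood test, prior count 0.125, Benjamini-Hochberg adjusted p under 0.05). SE is the size of the log2 fold change over the root of its F statistic. The quasi-likelihood, exact and DESeq2 tests were checked on simulated counts. The simulation had the same dispersion for every gene, no effect of replicate number and changes only in well-counted genes. It therefore does not cover genes near 0 counts in WT or a shared replicate effect, and cannot say which test to prefer. Exon lengths, start sites and RE1 matches came from GENCODE M1 on NCBIM37, where 21860 identifiers matched 1 gene by symbol. Symbols missing from the table came from RefSeq GRCm38.p6. Intervals are exact binomial at 95%. Alternatives were 3 other scalings (RLE, upper quartile, library size alone), 2 other filters, the exact test of edgeR under each of its dispersion estimates (tag-wise, common), DESeq2 1.42.0, a replicate block, a prior count of 2, and each library left out.

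The genes and lists were chosen with earlier results of these data known. The genes named are all 10 members and Rest, and from each other list any gene past the threshold, the 4 largest changes (genotype means reaching 1 CPM) and the 2 highest levels, of which the text gives a selection. For each member past the threshold the 3 nearest patterns were named.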

Additional observations from a re-analysis of the deposited data

How the results depend on the processing

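All 10 genes kept a positive log2 fold change, and Rest a negative one, in every alternative in which they were tested. Scg3 and Vgf passed the threshold in each fit of all 4 libraries. The number of the 10 genes past the threshold was 2, also with library size alone, a prior count of 2 and at least 10 counts in every library. It was 3 with RLE and with upper-quartile scaling and 4 with no filter on low counts. It was 7 with edgeR's exact test under either dispersion, 7 with DESeq2 and 9 with the replicate block. All genes called numbered 9, against 10 with RLE and with upper-quartile scaling, 53 with no filter, 3 with at least 10 counts in every library, 274 and 343 with tag-wise and common dispersion, 238 with DESeq2, 2621 with the replicate block and 60 to 113 with a library left out. With at least 10 counts in every library, Chgb, Scg2 and Scg5 were not tested and the median log2 fold change of the remaining 7 genes was 2.907.

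Of the vesicle genes, 1 was called with no filter, 3 in each exact test and with DESeq2 and 6 with the replicate block. Of the peptide precursors, 1 was called in each exact test and with DESeq2 and 5 with the replicate block, which also called 4 of the other processing enzymes. Some genes crossed the threshold with little change in log2 fold change. Chga did so at 3.197 with RLE scaling and with DESeq2, 3.209 with upper-quartile scaling, 3.195 with no filter, 3.204 and 3.205 in the exact tests and 3.21 with the replicate block. Chgb passed at 4.974 with no filter, 4.981 in both exact tests, 5.006 with DESeq2 and 4.975 with the block. Scg2 passed at 6.688 and 6.687 in the exact tests, 7.027 with DESeq2 and 6.678 with the block, and Scg5 at 5.074, 5.079, 5.104 and 5.097 in the same order. Pcsk2 passed at 2.908, 2.906, 2.906 and 2.891. Only the replicate block called Pcsk1 (1.456), Cpe (0.683) and Rest (-0.522). With a library left out, the log2 fold changes ran from 3.03 to 3.40 for Chga, 4.86 to 5.12 for Chgb, 5.94 to 8.82 for Scg2 and 4.36 to 6.31 for Scg5. The cause was not tested. The block rests on a shared number alone, since with 2 pairs the labels do not say what a number marks. Deviations of replicate 1 from the genotype mean correlated between genotypes at r = 0.81 over 15444 genes, which are not independent.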
